A study of Caenorhabditis elegans with 12 samples.

Results

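RNA from whole *C. elegans* was compared between 3 libraries labelled *sams-1* and 3 labelled wild type, all at D1, the first day of adulthood. These 6 libraries were chosen by their titles among 12 in the series, the others being the same groups at D7. Of 46925 genes in the tables, 12956 had enough counts at D1 to be tested. Gene lists are counted over the members tested, and a gene could pass the count filter through either group alone. All animals were grown on HT115 bacteria, the *E. coli* strain used for feeding RNAi. The labels give a wild-type genotype in both groups, with an RNAi treatment for the *sams-1* libraries and a control treatment for the others, whereas the study's methods describe a triplicate set from a loss-of-function strain. Which of these applies cannot be told apart here, and the groups are named by their labels throughout. The study calls the members of its triplicate set independent biological replicates. The labels number the libraries 1, 3 and 5 and do not name separate cultures.

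S-adenosylmethionine (SAM) is the methyl donor for histones, RNA and the headgroup of phosphatidylcholine, and it is made from methionine by SAM synthases, of which *C. elegans* has several. In worms low SAM or low phosphatidylcholine is known to raise lipid synthesis through the transcription factor SBP-1. A young adult hermaphrodite first makes sperm and then oocytes, and its germ line holds a large share of the RNA in a whole animal. Germ cells keep most genes of the X chromosome silent, and the intestine makes the yolk that oocytes take up. A new cuticle is made before each larval molt, by bursts of collagen and apical matrix genes that stop in the adult.

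Total expected counts ran from 5564047 to 6715881 in the libraries labelled *sams-1* and from 4505376 to 7568375 in wild type, with 17237 to 17281 and 15459 to 15939 genes detected. The first principal component of the 6 libraries took 80.1% of the variance and separated the groups, with replicate 1 labelled *sams-1* at 47.4, replicates 3 and 5 at 131 and 142, and the wild-type libraries at -128, -123.5 and -69.0. This replicate 1 therefore stood apart from the other libraries of its group, and counts are given with and without it. Levels are in CPM (counts scaled to library size after TMM) and changes are log2 fold changes, *sams-1* over wild type, from edgeR's quasi-likelihood test with Benjamini-Hochberg adjustment. Calls needed both an adjusted p below 0.01 and a change of 2-fold or more. In all, 2256 genes (17.4%) were called higher and 2116 (16.3%) lower in the libraries labelled *sams-1*. Without replicate 1 these counts were 2682 (19.5%) and 3520 (25.7%) of 13721 genes tested. The 2 groups of libraries did not overlap in 5353 genes (41.3%) that were higher and 4454 (34.4%) that were lower. The calls rest on all 6 libraries. Leaving out replicate 3 or 5 labelled *sams-1*, or wild-type replicate 1 or 3, left between 0 and 12 genes higher and between 0 and 2 lower, while leaving out wild-type replicate 5 left 1289 and 1102. At an adjusted p under 0.05, 2243 of the 2256 higher and all 2116 lower genes kept their direction and passed with any single library left out.

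Fold changes move as a whole with the scaling. Over all genes tested the median was 0.58 on the log2 scale with TMM, and relative to TMM the values moved by 0.59 with upper-quartile factors, 0.19 with library totals and -0.24 with RLE factors. Scaling on 29 body wall muscle genes moved them by -1.63 and scaling on 18 intestinal genes by -2.64. The split of calls moved with it, from 3426 higher and 789 lower with upper-quartile factors to 78 higher and 6750 lower with intestinal scaling. In RNA from whole animals, fewer cells of a type and less RNA per cell cannot be told apart.

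*sams-1*, which encodes the SAM synthase that the libraries are named for, is X-linked (11965962 to 11969893 in WBcel235, plus strand). It stood at 216, 211 and 227 CPM in replicates 1, 3 and 5 labelled *sams-1*, against 164, 109 and 201 CPM in wild type. These groups did not overlap, but the difference did not pass (log2 fold change 0.46, SE 0.26, adjusted p = 0.146 by edgeR), and it turned to -1.09 with muscle scaling and -2.2 with intestinal scaling. A lower level of the targeted mRNA was thus not seen with TMM, and its direction depends on the scaling. Reads from a remnant of a deleted gene would be counted with it. *sams-3*, a related synthase (chromosome IV, 5848657 to 5850843), was at 96.2, 86.3 and 97.6 CPM in libraries labelled *sams-1*, against 186, 236 and 216 CPM in wild type. It fell by 1.19 on the log2 scale (SE 0.20, edgeR adjusted p = 0.00378). *sams-4*, the neighbouring synthase, was at 147, 165 and 251 CPM against 269, 248 and 236 CPM, with overlapping groups. Per length, *sams-1* averaged 98.4 ± 7.399 TPM in the libraries labelled *sams-1* and 74.5 ± 22.2 TPM in wild type (SD, n = 3 each). On the same scale *sams-3* averaged 58.6 ± 6.96 and 139 ± 16.6 TPM, and *sams-4* 114.8 ± 30.2 and 161 ± 9.37 TPM. *sams-3* and *sams-4* are close in sequence and may share reads.

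Germ line genes were mostly lower. Of 42 germ line genes tested, 28 were called lower and 1 higher, with a median log2 fold change of -1.89, against 16.3% lower among all genes. Without replicate 1 labelled *sams-1* 39 were lower and none higher. *glp-1*, the Notch receptor that keeps germline stem cells dividing (chromosome III, 9092241 to 9099698), was at 107, 58.1 and 56.6 CPM in libraries labelled *sams-1*, against 503, 448 and 354 CPM in wild type. Its log2 fold change was -2.56 (SE 0.33, edgeR adjusted p = 0.00267), a 5.89-fold lower level. *gld-1*, which represses translation as germ cells enter meiosis, was at 273, 121 and 144 CPM against 1230, 1011 and 950 CPM. The histone methyltransferase genes *mes-4* and *mes-2*, which act in germline chromatin, had log2 fold changes of -2.26 and -1.73. The 1 member called higher was *fog-3*, which directs germ cells to become sperm. It was low throughout, at 4.54, 3.04 and 6.41 CPM in libraries labelled *sams-1*, against 0.606, 0 and 0.444 CPM in wild type. The summed CPM of the list was 3684, 1864 and 2036 in the libraries labelled *sams-1* and 11780, 10660 and 9276 in wild type.

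Genes of cell division and of germline RNA control were lower with it. Of 47 replication and mitosis genes, 37 were lower and none higher (median -1.93), and 46 were lower without replicate 1. *cyb-3*, a B-type cyclin, was at 327, 82.6 and 70.3 CPM against 1264, 1293 and 1031 CPM, and *cye-1*, the cyclin of S phase entry, at 76.3, 59.6 and 55.6 CPM against 310, 353 and 294 CPM. *hcp-6*, a condensin gene, fell by 2.13 on the log2 scale. Of 29 small RNA genes, 18 were lower and none higher (median -1.42). They include *hrde-1*, a nuclear Argonaute that carries silencing between generations, at 428, 188 and 180 CPM against 1537, 1625 and 1302 CPM, the Argonaute *ergo-1* (log2 fold change -2.23) and *dcr-1*, the Dicer nuclease (-1.49). Among 24 histone methylation genes, 17 were lower and 1 higher (median -1.64). *met-1*, an H3K36 methyltransferase, fell by 1.89 and *spr-5*, a histone demethylase, by 1.70 on the log2 scale. *set-30*, on chromosome X, was the higher one, at 41.5, 73.95 and 68.7 CPM against 6.82, 10.6 and 11.5 CPM, a log2 fold change of 2.67 that turned to -0.07 with intestinal scaling.

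Oocyte genes had a lower median than germ line genes, and replicates that lay further apart. Of 30 tested, 13 were called lower and none higher (median -2.89), and 29 were lower without replicate 1. *rme-2*, the yolk receptor of the oocyte (chromosome IV, 5470026 to 5473174), was at 290, 80.9 and 44.5 CPM in libraries labelled *sams-1*, against 1642, 1422 and 1014 CPM in wild type. *oma-2*, needed for oocyte maturation, was at 157, 36.3 and 22.5 CPM against 805, 786 and 568 CPM, and its partner *oma-1* at 114, 41.7 and 32.96 CPM against 555, 575 and 499 CPM. Replicate 1 thus held several times the oocyte mRNA of replicates 3 and 5, but stayed below every wild-type library. *cbd-1*, an eggshell gene, was at 994, 274 and 197 CPM against 5420, 4277 and 3194 CPM. The maternal factors *mex-5* and *pie-1*, which pattern the early embryo, had log2 fold changes of -3.05 and -3.15. *clec-87*, the C-type lectin gene with the highest mean over the 6 libraries, was at 453, 73.1 and 35.3 CPM against 1428, 1252 and 863 CPM, and it was not called (log2 fold change -2.66, edgeR adjusted p = 0.0343) until replicate 1 was left out (-4.57, adjusted p = 0.000405).

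Sperm genes took another course, with the wider spread in wild type. The summed CPM of 31 major sperm protein genes was 1619, 1467 and 1270 in replicates 1, 3 and 5 labelled *sams-1*, against 89.8, 398 and 2282 in wild type. Wild-type replicate 5 was above, and replicates 1 and 3 below, the libraries labelled *sams-1*. None of 28 tested was called by edgeR, 0 had an unadjusted p under 0.05 and DESeq2 called 0, with a median log2 fold change of 0.59 that turned to -0.93 with muscle and -2.15 with intestinal scaling. *gsp-3*, a sperm phosphatase, was at 70.1, 78.3 and 95.8 CPM against 2.88, 12.8 and 70.6 CPM. For major sperm protein genes, whose copies are nearly identical, only the sum is firm. Of 16 other sperm genes tested 1 was higher and none lower (median 1.69, or -1.06 with intestinal scaling). What sets these levels in the wild-type libraries was not tested.

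Yolk protein mRNA moved with the oocyte genes between replicates. Its summed level was 18120, 4678 and 2317 CPM in libraries labelled *sams-1*, against 23410, 11450 and 8653 CPM in wild type. None of the 6 genes was called by edgeR, with a median log2 fold change of -2.24. At an unadjusted p under 0.05 4 were lower, as were 4 by DESeq2 and 4 by edgeR without replicate 1. *vit-2* stood at 8263, 2346 and 1286 CPM against 5876, 3198 and 2471 CPM (log2 fold change 0.04, SE 0.70, edgeR adjusted p = 0.958). The groups overlapped, and the value turned to -1.21 without replicate 1 and to -1.64 with muscle scaling.

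**Figure D1:**
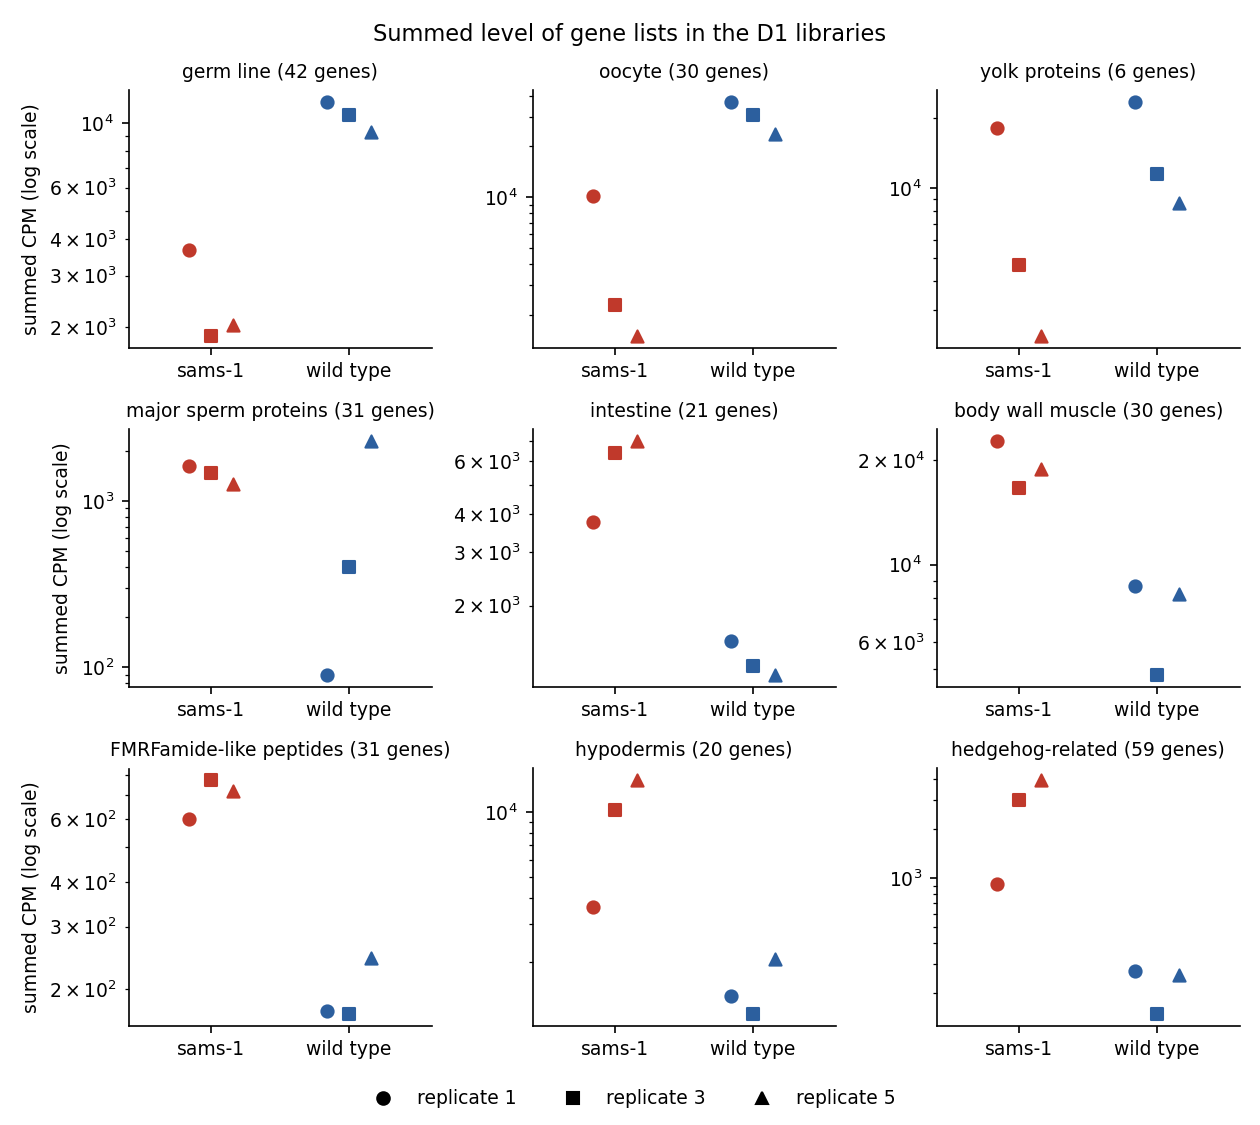
Summed CPM (log axis) of 9 gene lists in each D1 library, with *sams-1* in red on the left and wild type in blue on the right, and the marker giving the replicate number. The germ line and oocyte sums of the libraries labelled *sams-1* lie below every wild-type library, and the intestine, muscle and peptide sums above. Replicate 1 labelled *sams-1* lies between its group and wild type for oocyte, hypodermis and hedgehog-related genes, and the major sperm protein genes spread from 89.8 to 2282 CPM within wild type.

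On the X chromosome more genes were called higher than lower. Of 1745 X-linked genes tested, 28.6% were called higher and 3.32% lower, with a median log2 fold change of 1.34 that turned to -0.24 with muscle scaling. On chromosome I 10.6% were higher and 22.7% lower (median -0.35), and on chromosome III 12.11% and 21.5% (median -0.30). Chromosome V leaned the way of X, with 23.5% higher and 13.03% lower (median 1.21, or -0.36 with muscle scaling). The share of a library's counts does not depend on the scaling. X-linked genes took 10.7%, 10.3% and 10.7% of all counts in replicates 1, 3 and 5 labelled *sams-1*, against 6.22%, 4.21% and 4.89% in wild type, with replicate 1 no different from the others of its group. These groups did not overlap, and the exact permutation test gave p = 0.1 (two-sided), the smallest that 3 against 3 libraries allow. The same p was found for chromosomes I, III and V, with shares of 19.2% ± 0.721, 17.6% ± 0.942 and 16.95% ± 0.583 in the libraries labelled *sams-1* and 23.1% ± 0.516, 21.4% ± 0.392 and 15.1% ± 0.326 in wild type (SD, n = 3 each). Germ line sums also differed between the groups. They were 3684, 1864 and 2036 CPM in replicates 1, 3 and 5 labelled *sams-1*, and 11780, 10660 and 9276 CPM in wild type. The part of germ line genes in the X-linked share was not tested.

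**Figure D2:**
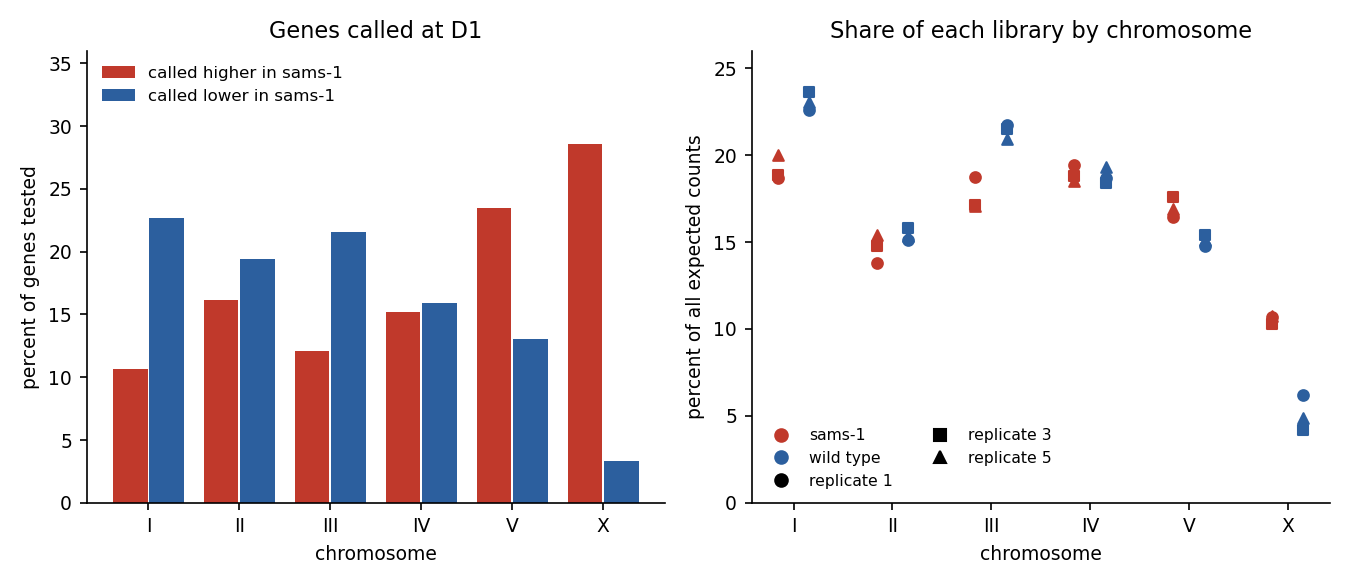
Left, percent of tested genes on each chromosome called higher (red) or lower (blue) in the libraries labelled *sams-1*, with 28.6% and 3.32% on X. Right, percent of all expected counts on each chromosome in the 3 libraries labelled *sams-1* (red) and the 3 wild-type libraries (blue), where X stands at 10.3% to 10.7% against 4.21% to 6.22%.

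Nearly all intestinal genes were called higher with TMM. Of 21 tested, 20 were called higher and none lower, with or without replicate 1 labelled *sams-1*, and 3 were higher with muscle scaling. Their median log2 fold change was 2.82, against 0.58 over all genes, or 1.198 with muscle scaling and 0.11 with intestinal scaling, which sets these genes equal by construction. *nhx-2*, a sodium/proton exchanger of the gut lumen (chromosome II, 7690711 to 7693957), was at 125, 189 and 114.5 CPM in libraries labelled *sams-1*, against 9.54, 10.2 and 9.10 CPM in wild type. Its log2 fold change was 3.89 (SE 0.29, edgeR adjusted p = 0.00224). *pept-1*, the peptide transporter that works with it, was at 75.9, 106 and 101 CPM against 9.54, 9.35 and 11.3 CPM. *act-5*, the actin of the microvilli, was at 615, 703 and 720 CPM against 115, 110.6 and 112.1 CPM. Gut proteases followed, with 18 of 21 aspartyl and cathepsin protease genes higher (median 2.33, turning to -0.42 with intestinal scaling). *asp-1* was at 907, 2119 and 2713 CPM against 439, 379 and 324 CPM, and *cpr-5* at 504, 1190 and 1487 CPM against 103.5, 91.6 and 84.1 CPM. For both, replicate 1 was lower than the others of its group and above wild type.

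In the muscle and nervous system lists more members were called higher than lower, with medians below that of the intestinal list. Over all genes 17.4% were called higher and 16.3% lower. With muscle scaling edgeR called none higher in the pan-neuronal, FMRFamide-like and neuropeptide-like lists. There 0, 1 and 3 members were higher at an unadjusted p under 0.05. None of the body wall muscle list was higher at either threshold, but this scaling sets those genes about equal by construction. Of 30 body wall muscle genes 11 were higher and none lower, and 3 without replicate 1, with a median of 1.58 that turned to -0.98 with intestinal scaling. *unc-52*, the perlecan that anchors muscle to the epidermis, was at 440, 415 and 641 CPM against 139, 65.9 and 149 CPM. The sarcomere genes *dim-1*, *tni-1* (troponin I) and *deb-1* (vinculin) had log2 fold changes of 1.95, 2.40 and 1.84. Among 12 pharyngeal genes 4 were higher (median 1.402, or -0.14 with muscle scaling), including the pharynx and gut regulator *pha-4*, at 11.9, 18.9 and 27.03 CPM against 5.60, 6.06 and 4.88 CPM. Of 23 pan-neuronal genes 13 were higher and 1 lower (7 and 2 without replicate 1), with a median of 1.63 that turned to -1.05 with intestinal scaling. *unc-64*, the syntaxin of synaptic release, was at 59.5, 88.98 and 72.0 CPM against 17.7, 17.7 and 21.3 CPM, and *egl-21*, which processes neuropeptides, at 188, 201 and 268 CPM against 72.1, 46.2 and 62.6 CPM. *ric-4* (SNAP-25) had a log2 fold change of 2.01. The lower one was *maco-1*, a macoilin gene, at 105, 52.9 and 62.8 CPM against 323, 210 and 180 CPM. Neuropeptide genes moved in 1 direction. Of 30 FMRFamide-like peptide genes 17 were higher and none lower (median 1.79), and of 53 neuropeptide-like genes 22 and none (median 1.73), both medians falling below 0 with intestinal scaling (-0.88 and -0.95). *flp-18* was at 54.6, 77.5 and 62.02 CPM against 10.2, 10.6 and 15.8 CPM, *flp-1* at 43.8, 66.9 and 49.5 CPM against 10.2, 11.8 and 11.98 CPM, and *nlp-40*, a peptide that the intestine secretes to time defecation, at 195, 195 and 168 CPM against 68.2, 69.2 and 56.1 CPM.

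Cuticle genes had high medians and a wide spread between replicates. Of 17 hypodermal genes tested 10 were higher and 2 lower (median 5.21, and 3.77 and 2.303 with muscle and intestinal scaling). Of 110 *col* collagen genes tested, among 156 listed, 51 were higher and 1 lower (median 3.99). Of 24 hedgehog-related genes tested, among 59 listed, 19 were higher and none lower (median 5.56). Members near 0 in wild type passed the filter through the libraries labelled *sams-1*, so these shares and medians lean towards higher members. *sqt-1*, a collagen that shapes the body (chromosome II, 11336693 to 11337837), stood at 35.1, 784 and 1438 CPM in replicates 1, 3 and 5 labelled *sams-1*, against 0.454, 2.42 and 5.55 CPM in wild type. Its log2 fold change was 8.11 (SE 1.54, edgeR adjusted p = 0.00525). *rol-6* was at 22.2, 498 and 772 CPM against 0.152, 1.90 and 3.99 CPM, and *bli-1*, a collagen of the struts of the adult cuticle, at 13.1, 222 and 643 CPM against 0.757, 2.25 and 2.89 CPM. *col-10* was at 201, 2199 and 1897 CPM against 25.1, 24.6 and 66.6 CPM. In each, replicate 1 was far below replicates 3 and 5 and still above the highest wild-type library. *grl-7* and *grl-5*, of the hedgehog-related family, were at 8.41, 157 and 276 and at 4.27, 83.7 and 150 CPM in libraries labelled *sams-1*, against at most 0.909 and 0.444 CPM in wild type. An adult collagen was an exception. *col-19*, a marker of the adult cuticle, was at 2718, 1129 and 797 CPM against 959, 766 and 1561 CPM, with overlapping groups, and was not called.

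A list of 23 molting and apical matrix genes was put together after these values were seen, so that its count is a description. Of 21 tested 12 were called higher and none lower, and of 23 tested without replicate 1 labelled *sams-1* 19 were higher. Their summed CPM was 274, 2197 and 3782 in the libraries labelled *sams-1* and 142, 83.1 and 119.4 in wild type. *mlt-10*, a gene expressed at each molt, was at 4.54, 77.0 and 177 CPM against 6.36, 9.17 and 5.55 CPM. Replicate 1 was thus below every wild-type library, and *mlt-10* was called only without it (log2 fold change 4.03, edgeR adjusted p = 0.000449, against 3.61 and 0.0231 with it). *ptr-4*, a patched-related gene of the apical matrix, was at 2.54, 52.2 and 128 CPM against 0.757, 0.346 and 1.33 CPM. These genes, the oocyte genes and the yolk genes separate replicate 1 from replicates 3 and 5. FMRFamide-like peptide sums differed less (600, 772 and 719 CPM), with replicate 1 the lowest. The X-linked share did not set replicate 1 apart. What sets replicate 1 apart was not tested.

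**Figure D3:**
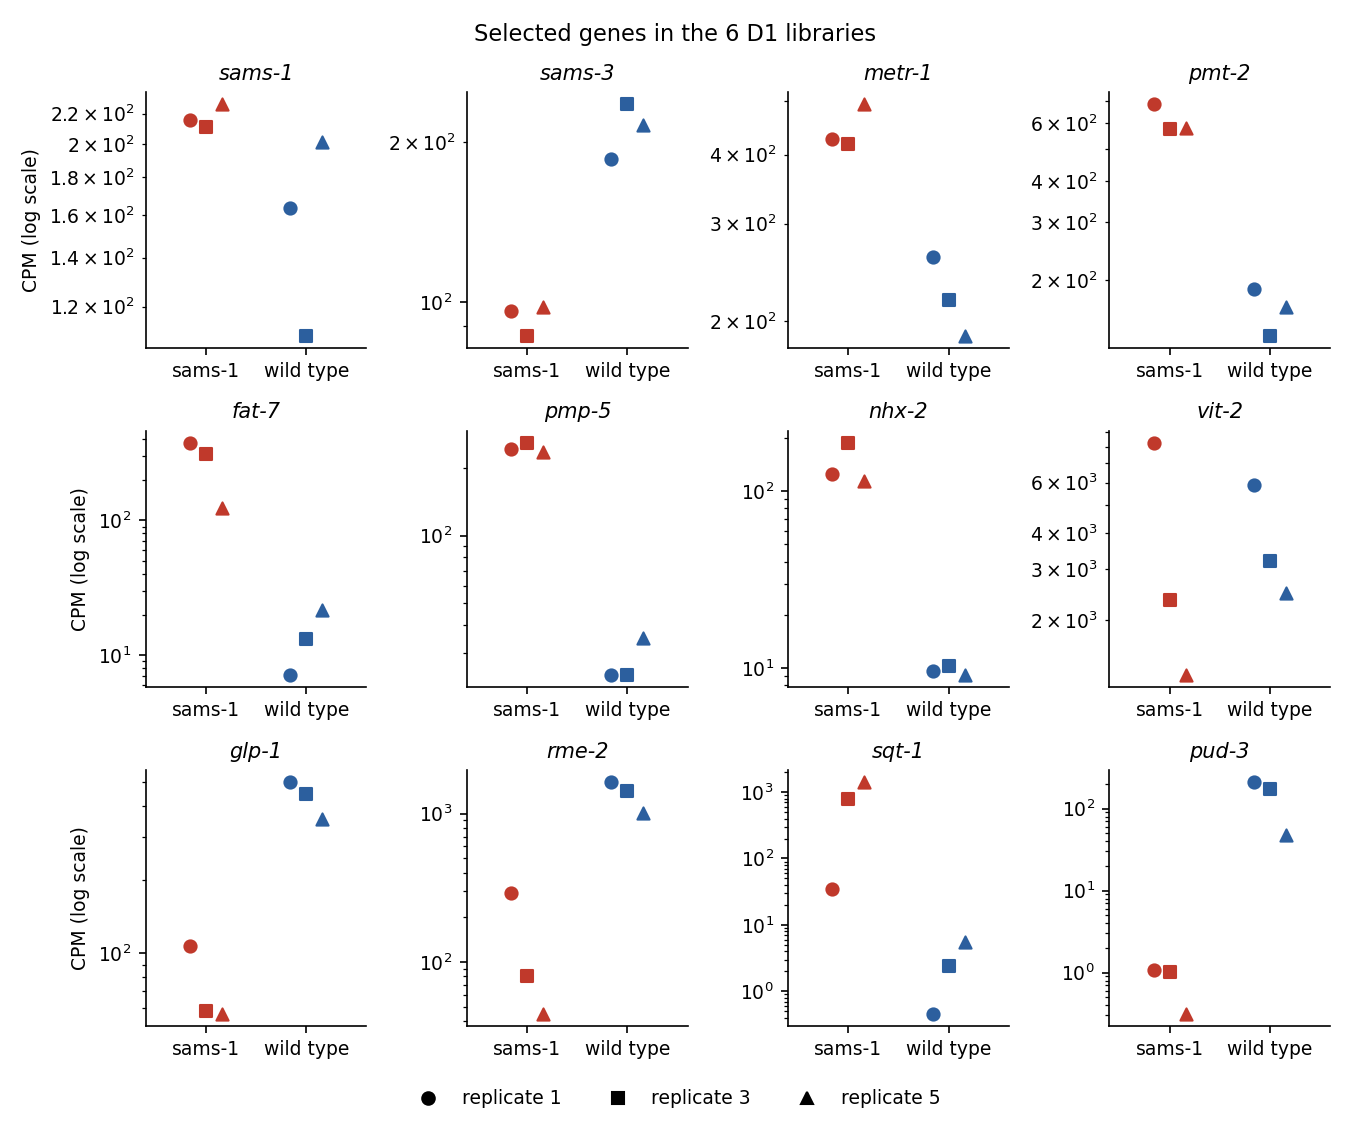
CPM (log axis) of 12 genes in the 3 libraries labelled *sams-1* (red, left) and the 3 wild-type libraries (blue, right). *pmp-5*, *nhx-2* and *pmt-2* lie close together within each group, *rme-2* and *sqt-1* differ between replicate 1 and the other libraries labelled *sams-1*, and *sams-1* itself is at 211 to 227 CPM against 109 to 201 CPM.

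The genes nearest to the enzyme were called at shares below or near those of all genes, 17.4% higher and 16.3% lower. Of 18 genes of the methionine and SAM cycle 2 (11.1%) were called higher and 1 (5.56%), *sams-3*, lower. Their median was 0.75, or -0.87 with muscle scaling, against 0.58 over all genes with TMM. *metr-1*, methionine synthase (chromosome II, 10926561 to 10931078), was at 426, 418 and 495 CPM against 261, 218 and 188 CPM. *mthf-1*, which supplies its methyl folate, was at 292, 361 and 458 CPM against 189, 176 and 154 CPM. Both passed the fold threshold narrowly (log2 fold changes 1.01 and 1.1, SE 0.22 and 0.24, edgeR adjusted p = 0.00854 and 0.00821). In phosphatidylcholine synthesis 4 of 17 genes (23.5%) were higher and 2 (11.8%) lower (median 1.15, or -0.44 with muscle scaling). *pmt-1* and *pmt-2*, the SAM-dependent methyltransferases that make phosphocholine in worms, were both higher. *pmt-1* was at 477, 459 and 373 CPM against 128, 72.7 and 117 CPM, and *pmt-2* (chromosome V, 4628580 to 4635263) at 689, 578 and 582 CPM against 188, 135 and 166 CPM. *pcyt-1*, the rate-limiting enzyme of that pathway, had a log2 fold change of 1.21, and *cept-1*, which joins choline to diacylglycerol, one of 2.05. Its paralogue *cept-2* was lower, at 68.3, 48.6 and 55.0 CPM against 169, 159 and 137 CPM. *pssy-2*, a phosphatidylserine synthase gene, fell by 2.18 on the log2 scale.

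Among desaturation and elongation genes none was called lower. Of 24 tested 15 (62.5%) were higher, against 17.4% of all genes (median 1.57, or -0.01 with muscle scaling). *fat-7*, a stearoyl-CoA desaturase (chromosome V, 7151353 to 7153146), was at 378, 309 and 123.6 CPM in libraries labelled *sams-1*, against 7.12, 13.2 and 21.5 CPM in wild type. Its log2 fold change was 4.29 (SE 0.57, edgeR adjusted p = 0.00274), a 19.5-fold higher level. Its close paralogue *fat-6* was at 665, 1057 and 825 CPM against 122.4, 100 and 86.98 CPM, and *fat-5*, the palmitoyl-CoA desaturase, at 225, 367 and 186 CPM against 50.3, 35.3 and 30.8 CPM. *fat-2*, the most abundant of the list, was at 1013, 1543 and 1695 CPM against 368, 199 and 161 CPM, and *elo-2*, an elongase of palmitate, had a log2 fold change of 2.44. In peroxisomal beta-oxidation 14 of 19 genes were higher and none lower (median 2.14, or -0.55 with intestinal scaling), and 15 without replicate 1. *pmp-5*, a peroxisomal ABC transporter (chromosome V, 6662191 to 6665813), was at 243, 259 and 234.5 CPM against 24.1, 24.1 and 35.1 CPM, with little spread in either group. *dhs-28* and *maoc-1*, enzymes that shorten the side chains of ascarosides, had log2 fold changes of 2.33 and 2.17. Among lipases and lipid-binding proteins 6 of 20 were higher and none lower (8 and 2 without replicate 1), with a median of 1.55 that turned to -0.04 with muscle scaling, and with *lbp-6* at 349, 504 and 386 CPM against 57.4, 66.1 and 56.6 CPM.

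Mitochondrial beta-oxidation and propionate genes were mixed, with 4 of 29 (13.8%) higher and 1 (3.45%) lower (median 0.20, or -0.06 with RLE factors). Over all genes 17.4% were called higher and 16.3% lower. With all 6 libraries, every list in this paragraph was called at shares below these. *acdh-1*, the acyl-CoA dehydrogenase of the propionate shunt, was at 2065, 2256 and 2081 CPM against 575, 619 and 641 CPM. *acdh-2*, a paralogue on another chromosome and not on that list, went the other way. It was at 2.14, 3.21 and 1.88 CPM against 41.96, 53.3 and 41.5 CPM, an 18.9-fold lower level. *cpt-1*, carnitine palmitoyltransferase, fell by 1.27 on the log2 scale. Of 61 respiratory chain genes 5 were higher and none lower, or 5 and 4 without replicate 1 (median 0.36, or -1.26 with muscle scaling), among them *gas-1* of complex I (log2 fold change 1.52) and *ucr-2.1* of complex III (1.89), both X-linked. Mitochondrial ribosomal protein genes gave 2 lower of 70 (median -0.54, or 0.05 with upper-quartile factors), 1 of them *mrpl-40*, at 48.3, 53.5 and 41.2 CPM against 82.7, 115.1 and 105 CPM. Without replicate 1 labelled *sams-1*, 18 were lower. *tomm-20*, of the outer membrane translocase, was at 62.7, 46.8 and 52.2 CPM against 80.9, 66.6 and 56.1 CPM and did not pass. *Y111B2A.2* was called lower, at 42.8, 16.21 and 19.2 CPM against 89.5, 92.9 and 84.5 CPM. Of 23 genes of glycolysis and gluconeogenesis 3 were higher and 2 lower. The hexokinase gene *hxk-1* fell by 1.94 on the log2 scale.

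Paralogues in several families split between the groups. *gpd-2* and *gpd-4* encode glyceraldehyde-3-phosphate dehydrogenases. *gpd-2*, on chromosome X, was at 456, 421 and 552 CPM against 213, 70.6 and 126 CPM, and *gpd-4* at 62.5, 17.1 and 16.4 CPM against 293, 195 and 174 CPM. Among alpha-tubulins *tba-4* was higher, at 180, 281 and 298 CPM against 44.2, 36.7 and 36.6 CPM, and *tba-1* lower, at 384, 315 and 356 CPM against 1074, 943 and 883 CPM. *tbb-6*, a divergent beta-tubulin induced by stress (chromosome V, 12261531 to 12263368), was at 170, 149 and 139 CPM against 4.39, 1.04 and 0.888 CPM, a 69.2-fold higher level. The pairs *cept-1* and *cept-2*, and *acdh-1* and *acdh-2*, above, split in the same manner. With intestinal scaling the higher member of each of these pairs turned below 0 (*gpd-2* -0.81, *tba-4* -0.01, *cept-1* -0.55 and *acdh-1* -0.86), so that the split is one of relative level.

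Among protein turnover and synthesis genes, calls fell mainly in the proteasome. Of 32 proteasome genes 16 (50.0%) were lower and none higher (median -0.99), against 16.3% lower among all genes. Without replicate 1 labelled *sams-1*, 25 were lower. With library totals 9 were lower, and with upper-quartile factors edgeR called none (median -0.40), while 15 were lower at an unadjusted p under 0.05. *rpn-6.1*, a lid subunit, was at 93.6, 83.4 and 90.1 CPM against 246, 219 and 198 CPM, and the base subunit *rpt-2* had a log2 fold change of -1.19. None of 81 cytoplasmic ribosomal protein genes was called by edgeR (median 0.16), while 2 were higher and 1 lower at an unadjusted p under 0.05, and DESeq2 called 1 higher and 1 lower. Of 22 aminoacyl-tRNA synthetase genes 2 were lower, or 8 without replicate 1, and *kars-1* fell by 1.28 on the log2 scale. Of the genes often used as references, *ama-1*, of RNA polymerase II, was called lower, at 136, 109 and 154 CPM against 351, 260 and 241 CPM, and *act-1* was at 2117, 831 and 1432 CPM against 1108, 368 and 675 CPM with overlapping groups.

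Detoxification families had more members called higher than lower. Of 49 UDP-glucuronosyltransferase genes 21 were higher and 1 lower (median 1.85), of 46 cytochrome P450 genes 17 and 1 (median 1.69), and of 28 glutathione S-transferase genes 9 and none (median 1.16, or -0.36 with muscle scaling). The medians of the first 2 families turned to -0.83 and -0.99 with intestinal scaling, and without replicate 1 5 cytochrome P450 genes were lower. *ugt-62* was at 662, 1183 and 1023 CPM against 48.6, 28.6 and 20.4 CPM. *cyp-13A5*, of a family of close paralogues, averaged 120.1 ± 16.88 CPM in libraries labelled *sams-1* and 1.88 ± 0.880 CPM in wild type (SD, n = 3 each), a log2 fold change of 5.96 (SE 0.39, edgeR adjusted p = 0.00207). *gst-26* had a log2 fold change of 2.11. Among 33 ABC transporter genes 11 were higher and 3 lower (median 1.42, or -0.11 with muscle scaling). The intestinal *pgp-1* was at 110, 161 and 153 CPM against 15.2, 12.98 and 6.44 CPM, and *mrp-4* was lower, at 87.6, 21.8 and 17.7 CPM against 493, 300 and 228 CPM.

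Immune gene families had more members called higher than lower, against 17.4% higher and 16.3% lower over all genes. Of 74 C-type lectin genes tested, among 240 listed, 21 (28.4%) were higher and 2 (2.70%) lower (27 and 7 without replicate 1). Most listed lectin genes had too few counts to be tested, and a member could pass the filter through either group alone. The share is thus one of the members tested, not of the family. Their median of 1.47 turned to -0.06 with muscle scaling. Of 27 lysozyme and saposin-like genes 11 were higher and none lower (17 and none without replicate 1), with a median of 1.58 that turned to -0.96 with intestinal scaling. *clec-160* was at 55.9, 58.1 and 55.5 CPM against 12.4, 9.69 and 8.21 CPM, *lys-4* at 186, 431 and 220 CPM against 8.18, 15.6 and 32.6 CPM, and *irg-8* at 564, 631 and 356 CPM against 109, 129 and 146 CPM. Of 17 stress transcription factors and kinases 8 were higher and none lower (median 1.56, or -0.02 with muscle scaling). *fos-1* and *jun-1*, which encode the AP-1 factors, were at 31.6, 52.7 and 80.3 and at 48.5, 86.3 and 101 CPM in libraries labelled *sams-1*, against 11.1, 5.71 and 9.76 and 19.1, 11.6 and 13.8 CPM in wild type. *cebp-1*, a bZIP factor, had a log2 fold change of 2.80 and *pqm-1*, a zinc finger factor of the intestine, one of 3.36. *daf-12*, a steroid hormone receptor, was at 37.1, 68.9 and 92.0 CPM against 19.1, 16.3 and 29.7 CPM and missed the threshold (edgeR adjusted p = 0.0128), as did *hlh-30*, the TFEB homologue (log2 fold change 1.24, adjusted p = 0.0131). The autophagy receptor *sqst-1* was called higher, at 154, 246 and 310 CPM against 33.2, 14.9 and 18.6 CPM, and *lgg-1* was not (log2 fold change 0.46, adjusted p = 0.0699), while over 27 autophagy genes 2 were higher and 3 lower, or 4 and 8 without replicate 1.

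Chaperones of the mitochondrion were not called at D1. *hsp-6* was at 642, 598 and 719 CPM against 945, 623 and 537 CPM (log2 fold change -0.10, SE 0.28), and *hsp-60* at 348, 348 and 330 CPM against 716, 562 and 521 CPM (-0.81, SE 0.23, edgeR adjusted p = 0.0176), without overlap. *hsf-1*, the heat shock transcription factor, was called lower, at 54.7, 38.5 and 56.4 CPM against 204, 215 and 160 CPM. In the insulin pathway 6 of 22 genes (27.3%) were higher and 6 (27.3%) lower, against 17.4% and 16.3% over all genes. *sgk-1*, a kinase, was higher, at 17.6, 32.1 and 30.3 CPM against 3.94, 2.60 and 4.22 CPM.

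**Figure D4:**
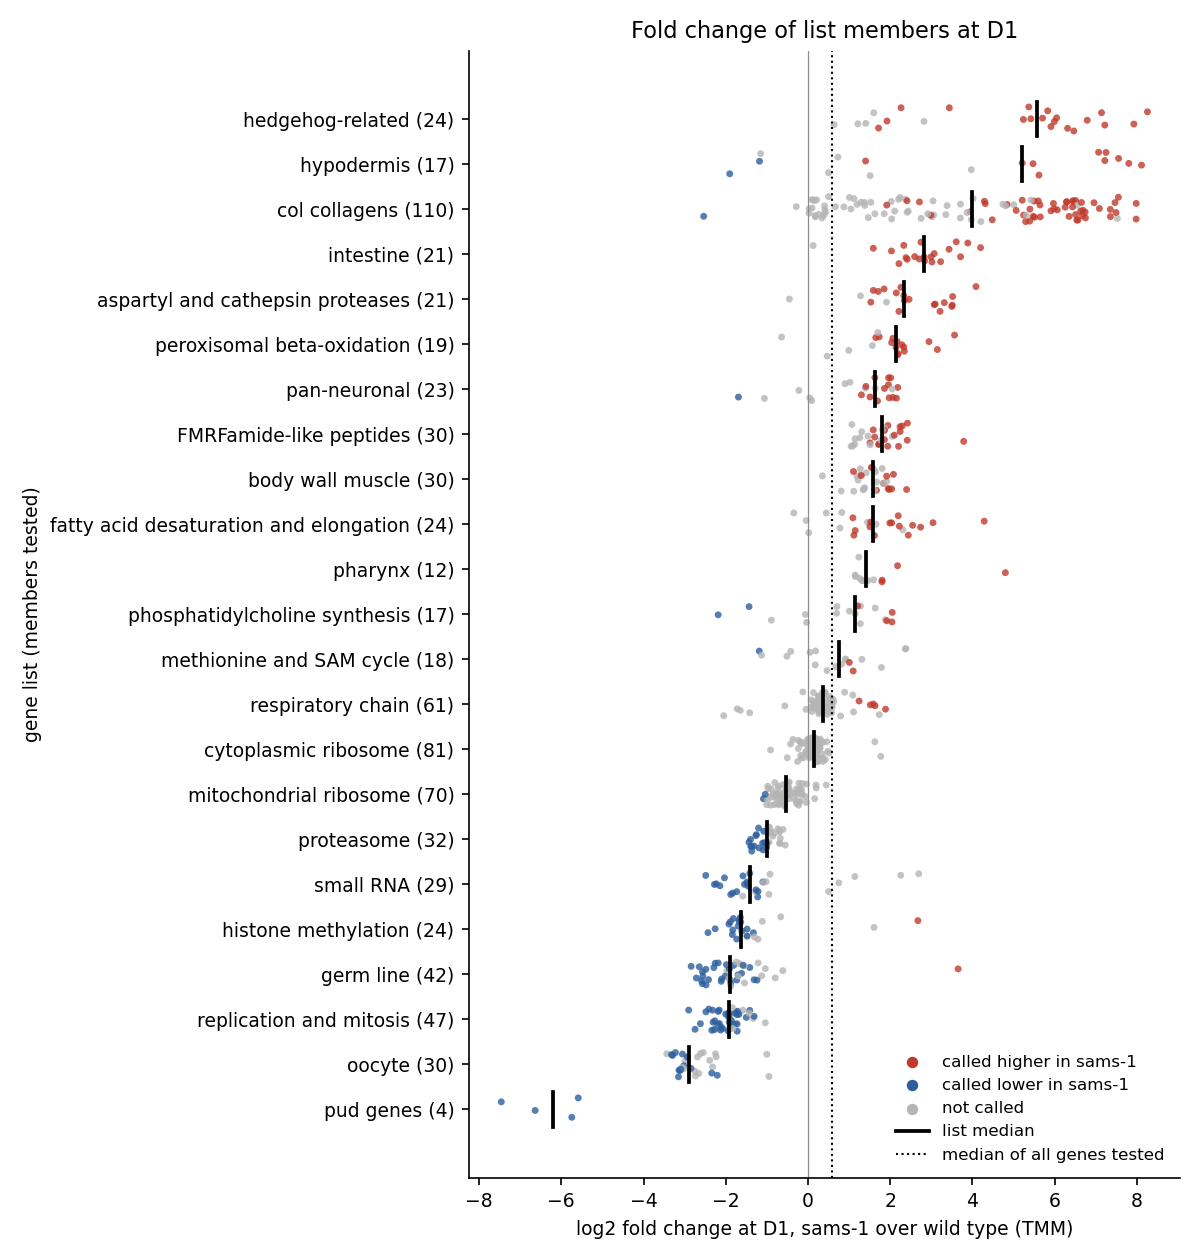
Log2 fold change at D1, *sams-1* over wild type, of each tested member of 23 lists, ordered roughly by median, with members called higher in red, called lower in blue and not called in grey. List medians (black bars) run from 5.56 for hedgehog-related genes to -6.19 for the *pud* genes, and the dotted line marks the median of all genes tested, 0.58.

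Single genes were ranked among those called, with a mean of at least 10 CPM and groups that did not overlap. Only symbols of letters, a hyphen and a number were ranked, which leaves out genes with sequence names. In this ranking the largest falls were in the *pud* genes, a small family. All 4 tested were called lower, with a median log2 fold change of -6.19. *pud-3* (chromosome V, 2324634 to 2325152) was at 1.07, 1.01 and 0.312 CPM in libraries labelled *sams-1*, against 213, 174 and 47.04 CPM in wild type, a log2 fold change of -7.46 (SE 0.77, edgeR adjusted p = 0.00260). *pud-4* was at 0.534, 1.69 and 0.156 CPM against 87.6, 123 and 25.96 CPM. *pud-1.2* and *pud-2.2*, which have near-identical copies and may share reads with them, were at 5.07, 18.7 and 5.31 and at 4.27, 31.6 and 6.56 CPM, against 620, 713 and 222 and 647, 1103 and 281 CPM. Here replicate 1 did not differ from its group, and wild-type replicate 5 had the lowest level of its own. *acdh-2* followed them. By the same ranking the largest rises were *dao-4*, *grl-5*, *sqt-1*, and the collagens *col-54* and *col-17* (log2 fold changes between 7.98 and 8.94). *dao-4* was at 3.60, 29.7 and 83.7 CPM against 0, 0.173 and 0 CPM. *col-54* was at 1.47, 52.3 and 7.81 CPM against 0, 0 and 0.222 CPM, so that its mean rests mostly on replicate 3 labelled *sams-1*. *grl-7*, *rol-6*, *dpy-8* and *bli-2* had log2 fold changes of 7.93, 7.80, 7.65 and 7.55. Fitted folds of genes near 0 in wild type depend on the prior count.

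The same comparison at D7, from other libraries, had 4093 of 12242 genes (33.4%) higher and 2008 (16.4%) lower. Of the 2256 genes higher at D1, 2078 were tested at D7 and 1729 of these (83.2%) were higher there too, which is 46.5% of the D7 calls that were tested at D1. Of the 2116 lower, 2108 were tested and 1193 (56.6%) were lower at D7, or 60.9% of the D7 calls. Only 2 and 2 were called the opposite way. The difference between the days, tested in 1 fit of all 12 libraries, passed an adjusted p of 0.05 in 158 of 14193 genes (1.11%) and of 0.01 in 4. Without replicate 1 labelled *sams-1* at D1 1987 passed 0.01, without wild-type replicate 1 at D1 40 and without wild-type replicate 5 at D1 13, so that this count rests on single libraries. All 4 *pud* genes were among those past 0.05, with the D1 fall absent at D7 (*pud-3* at 0.51, SE 0.51). *ifc-1*, an intestinal intermediate filament gene, was at 24.8, 37.8 and 49.1 CPM against 17.1, 18.5 and 22.2 CPM at D1 (log2 fold change 0.95) and had a log2 fold change of 5.70 at D7. *metr-1* and *mthf-1*, higher at D1, had log2 fold changes of -0.37 and -0.19 at D7. *ugt-25*, *adk-1* (adenosine kinase) and *acl-12* (an acyltransferase) had larger differences at D1, of 3.60, 1.19 and 3.21, than at D7, of -0.39, -0.03 and 1.22.

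**Figure D5:**
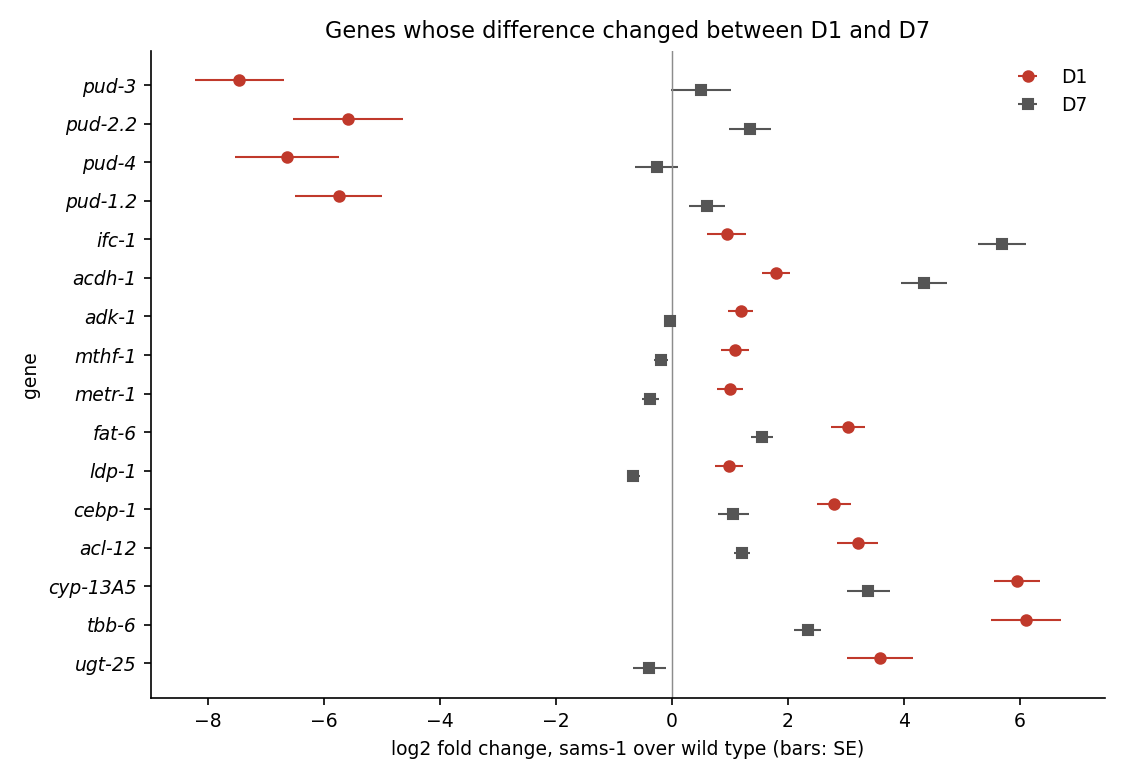
Log2 fold change, *sams-1* over wild type, with its SE at D1 (red) and at D7 (grey) for 16 genes whose change between the days passed an adjusted p of 0.05 and that were tested at both. The 4 *pud* genes lie between -7.46 and -5.59 at D1 and between -0.25 and 1.36 at D7.

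Where a gene's exons overlap another gene's, its value is uncertain, since whether strand was used in counting is not given. Of the genes named this holds for *jun-1* (20.8% of its exons, with *C16D2.1*) and *clec-87* (14.4%, with *iars-2*). By under 10% it holds for *sams-3*, *mthf-1*, *cept-2*, *pssy-2*, *fat-5*, *maoc-1*, *dhs-28*, *acdh-2*, *lbp-6*, *glp-1*, *pie-1*, *vit-2*, *unc-52*, *unc-64*, *bli-1*, *dpy-8*, *hcp-6*, *ergo-1*, *rpt-2*, *mrp-4*, *fos-1*, *gas-1*, *gpd-2*, *adk-1*, *ugt-25* and *mlt-10*.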

How the data were processed

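Reads were cleaned with Trimmomatic 0.39, mapped with STAR to the *C. elegans* genome with ws245 annotation and quantified per gene with RSEM 1.3.3, per the labels and the study's methods. Whether strand was used is not given in the sources used here. Per library, the authors deposited expected counts and TPM (a level scaled by the authors to transcript length and library) for each gene, and both were used here.

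Expected counts, of which at most 2.41% in a library were not whole, were rounded. Genes were filtered with filterByExpr, scaled by TMM and tested with edgeR 4.0.16 (glmQLFit and glmQLFTest, R 4.3.3) on the 6 D1 libraries, with 4 residual degrees of freedom and a biological coefficient of variation of 0.432. SE is the size of the log2 fold change divided by the root of F. Calls needed an adjusted p under 0.01 and a 2-fold change. The test was checked on simulated counts in which few genes changed, as many up as down. This check does not cover the choice of scaling. Positions and symbols come from Ensembl 115 (WBcel235), matched by identifier for 46917 genes.

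The members, the 68 gene lists and the rule for named genes were chosen with earlier results of these data known. The rule takes the genes the study names, the 15 largest called changes each way with a mean of at least 10 CPM and groups that do not overlap, up to 4 called members each way and the most abundant member per list, and the top 5 each way for the change between days, and not all of them are printed. For the largest changes and the change between days, only symbols of letters, a hyphen and a number were taken. *mlt-10* and *ptr-4*, and the molting list, were chosen after their values were seen. No library was a duplicate of another. Alternatives were 5 scalings, 2 filters, DESeq2 1.42.0, limma 3.58.1 on log2(TPM + 1) and log2(TPM + 0.1), a scale that understates the change of low genes, all 12 libraries, a replicate block, other thresholds and each library left out. Beside the planned ones, list counts without replicate 1 labelled *sams-1* were added after seeing the data. Some genes that the rule takes are not reported here.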

Additional observations from a re-analysis of the deposited data

Results flagged for a closer look

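For 17 named genes the difference between *sams-1* and wild type changed from D1 to D7 at an adjusted p under 0.05 by edgeR, in 1 fit of all 12 libraries. The values below are the D7 log2 fold change minus that at D1. It was positive for *pud-3* (7.73, adjusted p = 0.0104), *pud-2.2* (6.68, adjusted p = 0.0197), *pud-4* (6.14, adjusted p = 0.0207), *pud-1.2* (6.1, adjusted p = 0.0121), *acdh-2* (5.67, adjusted p = 0.0121), *ifc-1* (4.47, adjusted p = 0.00669) and *acdh-1* (2.27, adjusted p = 0.0479). It was negative for *ugt-25* (-4.24, adjusted p = 0.0197), *tbb-6* (-4.0, adjusted p = 0.0197), *cyp-13A5* (-2.82, adjusted p = 0.0482), *acl-12* (-2.26, adjusted p = 0.0208), *cebp-1* (-2.0, adjusted p = 0.0455), *ldp-1* (-1.91, adjusted p = 0.0130), *fat-6* (-1.75, adjusted p = 0.0455), *metr-1* (-1.63, adjusted p = 0.0286), *mthf-1* (-1.55, adjusted p = 0.0301) and *adk-1* (-1.49, adjusted p = 0.0207). Of these, *ifc-1* alone also passed 0.01. *acdh-2* had too few counts to be tested in the D7 libraries alone, so its value rests on the fit of all 12 libraries.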

How the results depend on the processing

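The calls depend on the scaling, the threshold and each library, and 3 libraries per group limit the precision. Genes higher and lower numbered 3426 and 789 with upper-quartile factors, 495 and 5234 with body wall muscle scaling and 78 and 6750 with intestinal scaling. Library totals gave 1314 lower, DESeq2 3748 lower, all 12 libraries in 1 fit 4546 higher, and an adjusted p under 0.05 4321 higher and 3270 lower. With each library left out the counts ran from 0 to 2682 higher and from 0 to 3520 lower. The cause of these shifts was not tested. RLE factors, both filters, both TPM fits and no threshold on the fold kept both counts within 1.5 times.

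The replicate numbers are shared between the groups. Deviations from the group mean correlated at 0.204, 0.0780 and 0.146 between same-numbered libraries, and at -0.307 to 0.237 between the others. So few values cannot tell whether same-numbered libraries share a culture or a batch. A replicate block gave 1529 genes higher and 1786 lower. The change between D1 and D7 passed an adjusted p of 0.01 in 2 genes with the block and, with each D1 library left out, in 1 to 1987 genes, against 4.

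Of 2196 values of the named genes under the alternatives, 76 changed sign, 60 of them under muscle or intestinal scaling. With muscle scaling the log2 fold changes were *sams-1* -1.09, *metr-1* -0.63, *mthf-1* -0.54, *pcyt-1* -0.44, *gsp-3* -0.02, *vit-2* -1.64, *nlp-40* -0.14, *col-19* -1.15, *hlh-30* -0.34, *lgg-1* -1.2, *gas-1* -0.04, *act-1* -0.51, *ifc-1* -0.67, *adk-1* -0.39 and *ldp-1* -0.62. With intestinal scaling they were *sams-1* -2.2, *metr-1* -1.63, *mthf-1* -1.58, *pmt-1* -0.58, *pmt-2* -0.69, *pcyt-1* -1.41, *cept-1* -0.55, *fat-2* -0.11, *elo-2* -0.22, *maoc-1* -0.52, *dhs-28* -0.42, *acdh-1* -0.86, *gsp-3* -1.29, *vit-2* -2.33, *act-5* -0.07, *asp-1* -0.41, *unc-52* -0.59, *dim-1* -0.65, *tni-1* -0.37, *deb-1* -0.78, *unc-64* -0.74, *egl-21* -0.8, *ric-4* -0.68, *flp-1* -0.45, *flp-18* -0.29, *nlp-40* -1.1, *col-19* -2.02, *set-30* -0.07, *gst-26* -0.55, *clec-160* -0.14, *irg-8* -0.63, *hlh-30* -1.45, *lgg-1* -2.19, *fos-1* -0.09, *jun-1* -0.3, *daf-12* -1.16, *pha-4* -0.91, *ucr-2.1* -0.75, *gas-1* -1.12, *gpd-2* -0.81, *tba-4* -0.01, *act-1* -1.48, *ifc-1* -1.78, *adk-1* -1.48 and *ldp-1* -1.61. The others that turned were *sams-4* 0.19, *hsp-6* 0.5 and *tomm-20* 0.26 with upper-quartile factors, *vit-2* -0.16 with RLE factors, *vit-2* -0.09 with no filter on low counts, *vit-2* -0.22 with DESeq2, *vit-2* -0.36 with limma-trend on log2(TPM + 1), *vit-2* -0.36 with limma-trend on log2(TPM + 0.1), *vit-2* -0.3 with a replicate block, *hsp-6* 0.1 with library totals and *hsp-6* 0.07 with all 12 libraries in 1 fit. With each library left out, those whose sign changed ran as follows: *vit-2* from -1.21 to 0.44, *col-19* from -0.34 to 0.79 and *hsp-6* from -0.33 to 0.11.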
